A study of Homo sapiens with 24 samples.

Results

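Paclitaxel added to almonertinib was set against almonertinib alone in PC9, a human lung adenocarcinoma cell line with an activating EGFR mutation. The members are the 6 PC9 libraries whose labels name the combination or almonertinib alone, 3 of each, out of 24 bulk RNA-seq libraries in the series. The whole series holds 8 groups of 3 libraries: PC9 and a second EGFR-mutant lung adenocarcinoma line, H1975, each given the combination, almonertinib, paclitaxel or no drug (control). All libraries were made after 24 h. PC9 received almonertinib at 2 nM or paclitaxel at 0.3 nM as single agents, and H1975 received 1 nM of either one. The labels give no separate doses for the combination, so equal almonertinib exposure in the compared groups is taken from the group names and was not tested. Both compared groups carry almonertinib, and neither an untreated nor a paclitaxel-only library enters either mean. PC9 is a single line, and whether replicate libraries were grown as independent cultures is not labelled. All p-values therefore refer to the variation among libraries, part of which may be technical.

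Almonertinib is an irreversible kinase inhibitor directed at mutant EGFR, the receptor that drives ERK and AKT signalling in such lines. Paclitaxel binds beta-tubulin in assembled microtubules and stabilises them, which disturbs the mitotic spindle. Among the programmes followed here, the unfolded protein response adjusts chaperone supply to the load of proteins entering the endoplasmic reticulum (ER). Type I and type III interferons act through receptor-bound JAK kinases, whose signal switches on antiviral effector genes.

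Library totals in PC9 were 21261748 to 21557798 counts in the combination and 18837395 to 24036265 counts under almonertinib. Levels are CPM, the usual library-scaled counts, with library sizes corrected for composition by TMM, and differences are log2 fold changes from edgeR, combination minus almonertinib, given with their standard error (SE). Almonertinib library 3 stood apart from the other almonertinib libraries. Its TMM factor was 0.856, and its deviation from the mean of the 12 PC9 libraries followed GC content across genes with a Spearman rho of 0.49, against -0.284 and -0.282 in almonertinib libraries 1 and 2. The combination libraries had 0.299, -0.018 and 0.327 on the same measure. The epithelial identity of the line held in both groups: all 9 lung epithelial markers were detected, with a summed level, per library total without TMM, of 24963 to 26162 CPM in the combination and 25281 to 27345 CPM under almonertinib. Immune markers summed to 3.95 to 4.61 CPM in the combination and 3.03 to 5.57 CPM under almonertinib, with 5 of 12 and 3 of 12 at 0. Fibroblast markers summed to 23.3 to 25 CPM in the combination, with 4 of 9 at 0, and to 16.6 to 20.5 CPM under almonertinib, with 6 of 9 at 0. Endothelial markers summed to 17.3 to 20.4 CPM in the combination and 15.4 to 16.2 CPM under almonertinib, with 3 of 7 at 0 in either group. In bulk samples, fewer cells of a kind and less RNA per cell cannot be told apart.

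Adding paclitaxel changed 2570 of 12796 genes tested (20.1%) at a Benjamini-Hochberg adjusted p under 0.05 in edgeR's quasi-likelihood test, with 1324 higher in the combination (10.3%) and 1246 lower (9.74%). By at least 2-fold, 224 genes rose and 71 fell, and the median over all genes tested was -0.04 on the log2 scale. The 3 combination and 3 almonertinib libraries did not overlap for 2389 of the called genes, and for 32.6% of all genes tested. Called genes numbered 1318 in a fit of the 6 compared libraries alone (828 higher and 490 lower), of which 1307 were also called among the 2570. Without almonertinib library 3 the number called was 4184, without combination library 1 it was 1274, and without combination library 3 it was 1616. Removing a fitted dependence on transcript length and on GC content (the length and GC trend) gave 1376 higher and 1936 lower genes, which moved the share of rises among the calls to 41.5%, against 51.5% without that step. Of the genes called with the trend removed, 1965 were also called among the 2570. A fit of all 24 libraries, whose spread estimate includes H1975, called 918 genes (655 higher and 263 lower). Among the genes named below, ABCG2, ATF5, BARD1, COPB2, COPG1, FANCI, HERC5, IFIT2, NPM1 and SLC38A2 were not called in that fit and were called in all other alternatives.

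Apart from KRT17 and GRB10, the 15 largest rises among genes averaging at least 5 CPM were in genes for secreted, matrix or membrane proteins. CCL5, a chemokine that attracts T cells and monocytes, stood at 717, 679 and 781 CPM in the combination libraries, against 87.5, 92.2 and 118 CPM in the almonertinib libraries. That is a log2 fold change of 2.87 ± 0.24 (edgeR adjusted p = 7.41e-07). FN1, which encodes the matrix glycoprotein fibronectin, had 2359, 2102 and 1889 CPM in the combination and 372, 316 and 329 CPM under almonertinib, a log2 fold change of 2.64 ± 0.15 (edgeR adjusted p = 1.71e-08). Every combination library lay well above every almonertinib library for both genes, but separate groups were a condition for naming them here. BOC, a cell-surface co-receptor for hedgehog ligands, reached 32.3, 28.1 and 29.4 CPM in the combination, against 4.47, 5.21 and 6.03 CPM under almonertinib (log2 2.51). SUSD2, a sushi-domain membrane protein, had 71.2, 68.8 and 67.3 CPM in the combination and 11.5, 10.7 and 14.3 CPM under almonertinib (log2 2.51). The adaptor GRB10, which binds the insulin receptor and restrains its signal, was 178, 168 and 168 CPM in the combination and 36, 37.6 and 35.4 CPM under almonertinib (log2 2.24). Its libraries agreed closely within each group. PTGER4, the EP4 receptor for prostaglandin E2, rose by 2.12 on the log2 scale. The Wnt and norrin receptor FZD4 rose by 2.31. The calcium-activated potassium channel KCNN1 rose by 2.32 at low levels, with 17.8, 17.6 and 17 CPM in the combination and 3.1, 2.33 and 5.11 CPM under almonertinib.

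The largest falls included interferon-stimulated genes, neutrophil chemokines, the growth-factor feedback gene DUSP6 and genes of other functions. DKK1, a secreted Wnt antagonist, had 13.4, 14.1 and 13 CPM in the combination and 49.3, 44.8 and 37.3 CPM under almonertinib, a log2 fold change of -1.70 ± 0.15 (edgeR adjusted p = 1.32e-06). The neutrophil chemokine CXCL1 stood at 6.52, 8.05 and 6.98 CPM in the combination and 18.2, 20.9 and 15.4 CPM under almonertinib (log2 -1.34). CXCL8, the related neutrophil chemokine, had 3.62, 4.35 and 3.64 CPM in the combination and 11.8, 16.1 and 6.03 CPM under almonertinib (log2 -1.55). The 3 combination libraries were the lowest for all of these, which the rule for naming the largest falls required. The almonertinib libraries varied among themselves more than the combination libraries did. CSE1L, which returns importin alpha to the cytoplasm, fell by 1.28 on the log2 scale, and RND3, a small GTPase that loosens actin stress fibres, fell by 1.27. DUSP6, the phosphatase that ERK induces against itself, fell by 1.38. Interferon-linked genes among the 15 largest falls are described next, though not all of them.

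**Figure D1:**
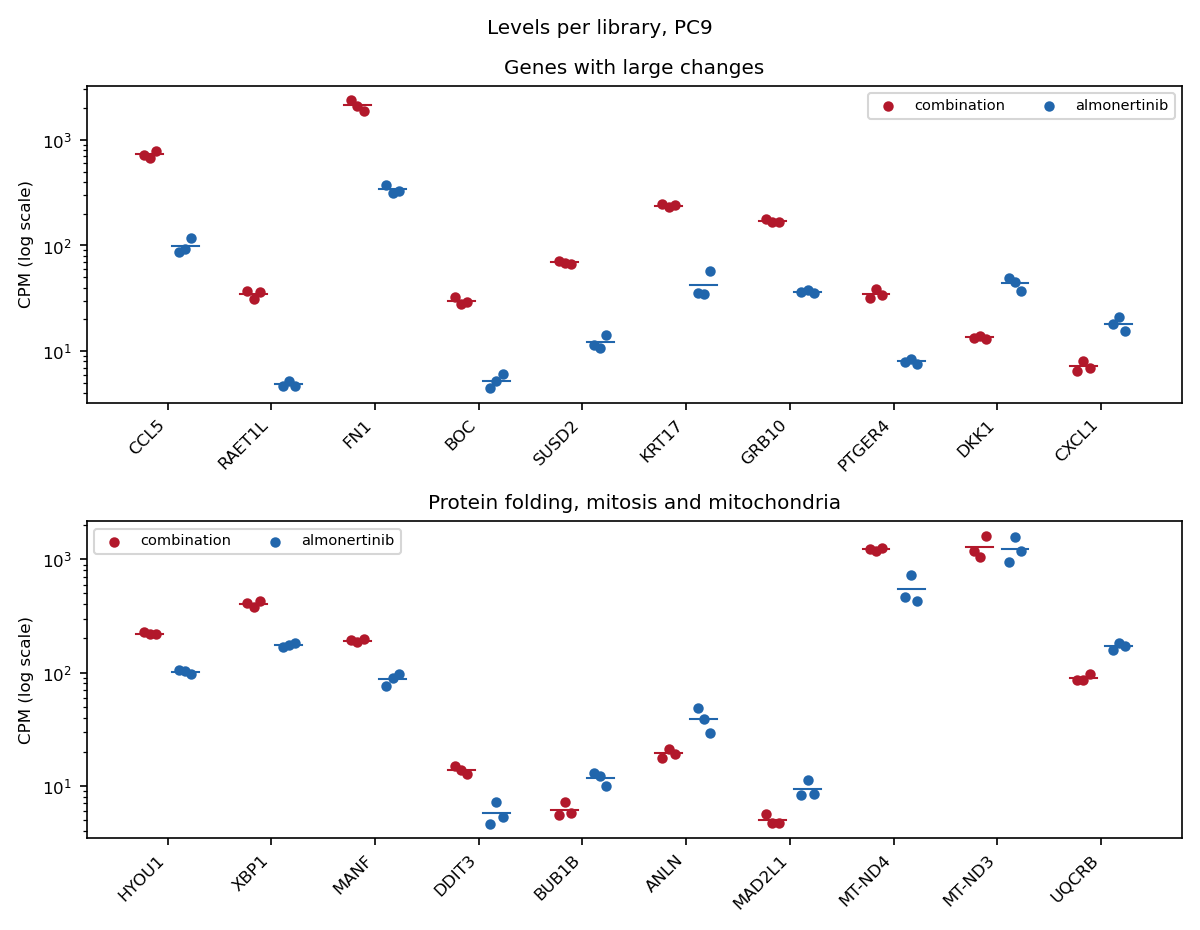
CPM per library (log axis) of 20 genes in PC9, with the combination on the left of each pair and almonertinib on the right; points are the 3 libraries and bars their mean. CCL5, RAET1L and FN1 stand highest above almonertinib, DKK1 and CXCL1 lie below it, and MT-ND3 overlaps between the groups.

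Interferon genes and most interferon-stimulated genes moved in opposite directions. All 4 interferon genes tested rose: IFNB1, the type I interferon, and the type III interferons IFNL1, IFNL2 and IFNL3. IFNL1 stood at 119, 113 and 125 CPM in the combination, against 22.4, 20.9 and 32.6 CPM under almonertinib, a log2 fold change of 2.24 ± 0.25 (edgeR adjusted p = 1.3e-05). IFNB1 was lower in level, with 10.2, 7.55 and 9.31 CPM in the combination and 1.83, 2.28 and 2.24 CPM under almonertinib (log2 2.08). IFNL2 and IFNL3 rose by 2.52 and 2.49, but they are near-identical copies and reads may be split between them. In contrast, 39 of 56 antiviral effectors fell and 4 rose, with a list median of -0.76 against -0.04 for all genes tested. Both directions kept nearly the same counts in the 6-library fit, with 37 lower and 4 higher.

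Among the effectors that fell, IFI35, which modulates RIG-I and innate signalling, had 142, 149.5 and 154 CPM in the combination and 312, 307 and 409 CPM under almonertinib (log2 -1.20 ± 0.12, edgeR adjusted p = 4.42e-06). The nuclear-body protein SP110 had 27, 35.6 and 29.4 CPM in the combination and 78.5, 71 and 61.8 CPM under almonertinib (log2 -1.20). IFI44L, a feedback regulator of the interferon response, had 13.2, 19.2 and 13.9 CPM in the combination and 56.8, 46.6 and 33.2 CPM under almonertinib (log2 -1.56). The groups did not overlap in these 3 genes, as in 2389 of the 2570 called genes. PNPT1, a mitochondrial exoribonuclease that interferon also induces, fell by 1.67 on the log2 scale. The dynamin-like antiviral GTPase MX2 fell by 1.27, the apoptosis regulator XAF1 by 1.24, and the antiviral protein SAMD9L by 1.47. Smaller falls were those of the ADP-ribosyltransferases PARP12 (-0.70) and PARP9 (-0.94) and of the phospholipid scramblase PLSCR1 (-0.93). The 4 effectors that rose were OASL, ISG20, IFIT2 and HERC5. OASL, which enhances RIG-I signalling, had 1268, 1132 and 1273 CPM in the combination and 345, 368 and 453 CPM under almonertinib (log2 1.65 ± 0.15, edgeR adjusted p = 1.4e-06). ISG20, a 3′ to 5′ exonuclease, had 205, 213 and 196 CPM in the combination and 87.9, 82.8 and 119 CPM under almonertinib (log2 1.08). IFIT2, which binds viral RNA, rose by 0.75, and HERC5, the ligase that attaches ISG15 to proteins, rose by 0.68.

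The regulators were divided as well, with 12 of 40 higher, 9 lower and a list median of -0.01. Of 13 transcription factors of the pathway tested, 4 fell and 3 rose. IRF7, the factor that amplifies interferon transcription, had 113, 121 and 116 CPM in the combination and 230.4, 214 and 282 CPM under almonertinib, a log2 fold change of -1.05 ± 0.13 (edgeR adjusted p = 4.39e-05). BATF2, a basic leucine zipper factor induced by interferon gamma, fell by 1.55, and NLRC5, the activator of class I genes, fell by 0.64. IRF1, by contrast, had 186, 169.6 and 182 CPM in the combination and 91.1, 88.6 and 109 CPM under almonertinib (log2 0.90). The difference for STAT2 was -0.29 (edgeR adjusted p = 0.0624), which did not pass. The brake SOCS3, an inhibitor of JAK signalling, rose by 0.93, whereas the brake USP18, which removes ISG15 and blocks the interferon receptor, fell by 0.74. Of 10 nucleic acid sensors and their effectors tested, 3 fell and 1 rose, and SAMHD1, the dNTP hydrolase that restricts retroviruses, fell by 1.13. The difference for TBK1, the kinase that activates IRF3, was -0.70 (edgeR adjusted p = 0.0514).

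Effectors that fell and effectors that rose both included genes with the same short promoter sequence. The core of the interferon-stimulated response element was searched as GAAANNGAAA on both strands, from 250 bases before to 50 bases after each RefSeq gene start. It was present in 29 of 45 effectors with a promoter in the table (64.4%), in 20 of the 34 that fell (58.8%), and in 284 of 10352 genes tested (2.74%). It was present in 5.47% of the genes that fell and 2.62% of those that rose. The windows show 1 match each in effectors that fell, in effectors that rose and in the type III interferon genes, with the matched letters in capitals and 25 bases on either side, written 5′ to 3′ on the gene's strand (RefSeq, GRCh38.p14).
PARP12, chr7:140062927-140062986, - strand: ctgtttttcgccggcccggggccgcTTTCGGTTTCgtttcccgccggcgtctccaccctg
PLSCR1, chr3:146544652-146544711, - strand: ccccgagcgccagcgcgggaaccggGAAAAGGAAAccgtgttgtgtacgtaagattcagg
IFI44L, chr1:78620350-78620409, + strand: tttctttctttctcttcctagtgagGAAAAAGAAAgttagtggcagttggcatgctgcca
ISG20, chr15:88638922-88638981, + strand: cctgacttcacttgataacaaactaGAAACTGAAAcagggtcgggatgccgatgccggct
HERC5, chr4:88457020-88457079, + strand: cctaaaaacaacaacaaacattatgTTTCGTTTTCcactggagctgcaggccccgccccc
IFNL1, chr19:39296174-39296233, + strand: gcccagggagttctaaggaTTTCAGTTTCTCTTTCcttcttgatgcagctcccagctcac
IFNL2, chr19:39268195-39268254, + strand: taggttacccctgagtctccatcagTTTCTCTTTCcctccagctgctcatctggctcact
IFNL3, chr19:39245392-39245451, - strand: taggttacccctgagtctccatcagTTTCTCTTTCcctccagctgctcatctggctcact
The windows of IFNL2 and IFNL3 are letter for letter the same. That of IFNL1 holds 2 matches that overlap. Windows with TTTC in capitals hold the element on the opposite strand. A match is a description of the sequence and not a bound site.

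**Figure D2:**
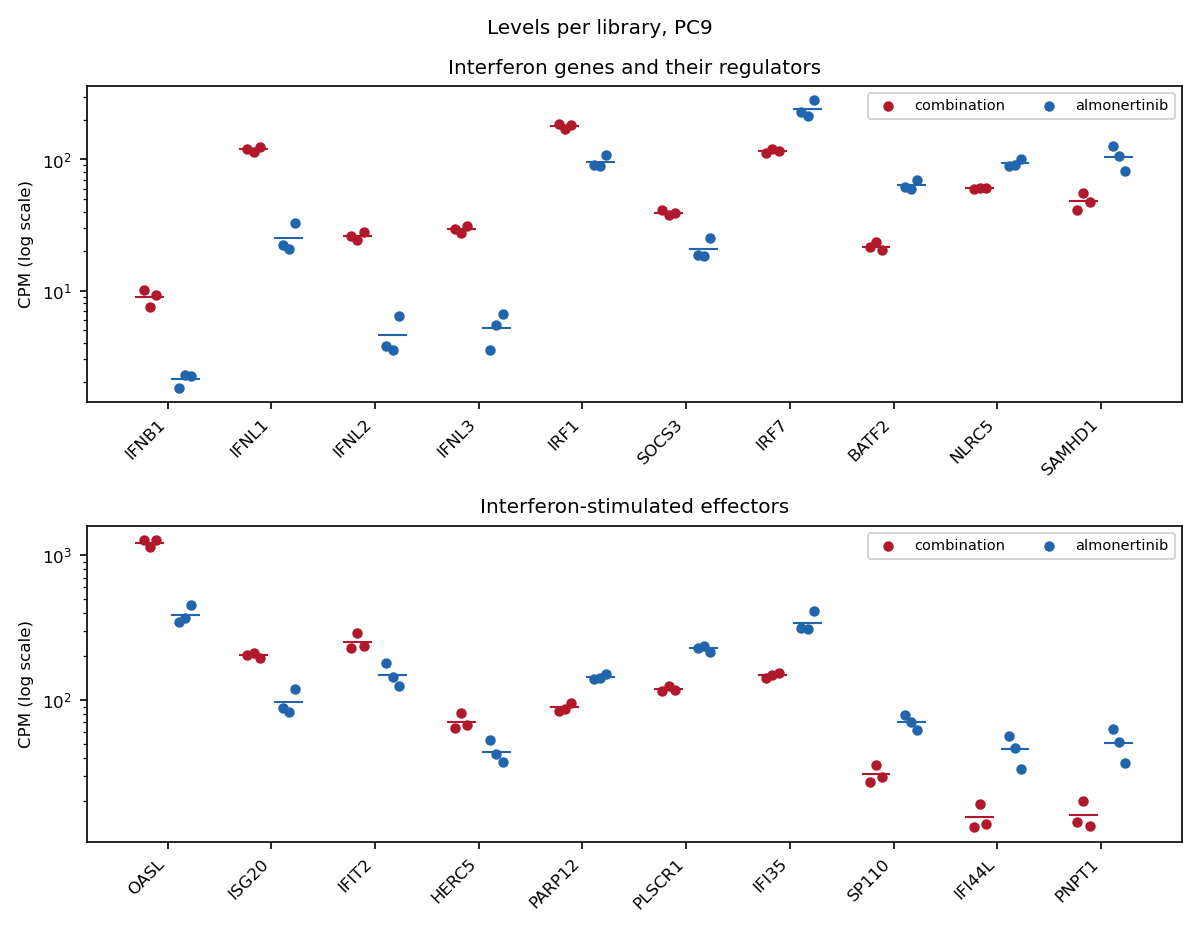
CPM per library (log axis) of interferon genes and regulators (top) and interferon-stimulated effectors (bottom) in PC9, with the combination on the left of each pair and almonertinib on the right; points are the 3 libraries and bars their mean. The 4 interferon genes, OASL and ISG20 are higher in the combination, while NLRC5, IFI35, SP110, IFI44L and PNPT1 are lower.

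Antigen presentation gave 2 rises (9.52%) and 3 falls (14.3%) in 21 genes tested (median -0.14). Here and in the lists that follow, the median log2 fold change of the members tested stands in brackets, against -0.04 for all genes tested. Every count of members that rose or fell, by list or by role, stands beside 10.3% and 9.74% of all genes tested. Those lower were TAP1, a subunit of the peptide transporter (-0.59), and the immunoproteasome subunits PSMB8 (-0.58) and PSMB9 (-0.45). The call for PSMB9 was lost in the 6-library fit. The 2 that rose, CALR and PDIA3, are also ER folding proteins. Class I heavy chains gave no call, for example HLA-C at -0.24 (edgeR adjusted p = 0.146).

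Ligands of NKG2D, the activating receptor on natural killer cells, rose in 5 of 8 genes tested, and none fell. RAET1L had 37, 31.2 and 36.2 CPM in the combination and 4.72, 5.25 and 4.67 CPM under almonertinib, a log2 fold change of 2.83 ± 0.18 (edgeR adjusted p = 4.84e-08). ULBP2, the neighbouring ligand gene, had 11.4, 9.98 and 12.7 CPM in the combination and 5.23, 3.88 and 5.45 CPM under almonertinib (log2 1.23). RAET1E rose by 1.26, ULBP3 by 1.30 and ULBP1 by 0.74, all at levels under 7 CPM in every library. ULBP1 lost its call without almonertinib library 2 and without combination library 1 or 2, and RAET1E in 10 of 12 alternatives that tested it. The related RAET1G was at 0.58 (edgeR adjusted p = 0.137) and MICA at 0.34 (edgeR adjusted p = 0.142). RAET1L, RAET1G and ULBP2 are close paralogs on chromosome 6, so reads could be shared between them. Together with checkpoint ligands, 7 of 19 genes rose and 2 fell (median 0.34). PVR, the ligand of TIGIT and DNAM-1, rose by 0.59, and LGALS9, which encodes galectin-9, fell by 1.00. CD274, which encodes PD-L1, was at 0.50 (edgeR adjusted p = 0.178) and under 2 CPM in all 6 libraries.

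Chemokines and cytokines rose in 8 of 25 genes tested and fell in 3 (median 0.28), with 5 rises under the stricter filter on low counts. IL6, the pleiotropic inflammatory cytokine, had 10.6, 8.88 and 9.89 CPM in the combination and 1.47, 2.41 and 2.72 CPM under almonertinib (log2 2.14 ± 0.24, edgeR adjusted p = 1.61e-05). CCL22, a chemokine for regulatory T cells, had 22.1, 18.3 and 20.7 CPM in the combination and 6.35, 4.95 and 8.75 CPM under almonertinib (log2 1.61). The T-cell chemokine CXCL10, itself a classical interferon target, had 6.23, 7.78 and 8.39 CPM in the combination and 2.49, 2.2 and 1.46 CPM under almonertinib (log2 1.86). CXCL11, which shares its receptor, rose by 1.77 at levels under 2 CPM. The third gene to fall beside CXCL1 and CXCL8 was LTB, a membrane-bound lymphotoxin (-1). Feedback genes of NF-kB, the transcription factor downstream of many inflammatory signals, rose in 5 of 20 genes tested and none fell (median 0.17). With the length and GC trend removed, 7 rose and 1 fell. TNFAIP3, the ubiquitin-editing brake A20, had 29.7, 31.1 and 27.8 CPM in the combination and 15.2, 14.4 and 13.1 CPM under almonertinib (log2 1.05). NFKB2 rose by 0.60, the antioxidant enzyme SOD2 by 0.72, BCL3 by 0.63 and NFKBIZ by 0.49. NFKBIZ was not called in the 6-library or the 24-library fit. ICAM1, the leukocyte adhesion receptor, was at 0.21 (edgeR adjusted p = 0.129).

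Genes of protein folding in the ER rose in 50% of those tested. Of 44 chaperones, disulfide enzymes, degradation factors and sensors tested, 22 rose and none fell, with a list median of 0.48 against -0.04 for all genes tested. In the 6-library fit, 21 rose, and without almonertinib library 3, 23 rose and 2 fell. HYOU1, the large ER chaperone of the Hsp70 family, had 226, 220.1 and 217 CPM in the combination and 104, 103 and 96.4 CPM under almonertinib, a log2 fold change of 1.12 ± 0.08 (edgeR adjusted p = 1.23e-07). HSPA5, the central chaperone BiP, had 613, 659 and 613 CPM in the combination and 397, 336 and 289.5 CPM under almonertinib (log2 0.88). MANF, a secreted folding cofactor, had 194, 185 and 196 CPM in the combination and 76.5, 90.3 and 96.5 CPM under almonertinib (log2 1.13). XBP1, the transcription factor that the sensor IRE1 activates by splicing, had 411, 381 and 428 CPM in the combination and 168, 176 and 182 CPM under almonertinib (log2 1.21). The groups were separate for all 4 genes. By role, 8 of 15 chaperones, 6 of 9 disulfide enzymes, 5 of 11 degradation factors and 3 of 9 sensors or factors rose. PDIA4, a disulfide isomerase, rose by 1.16, and HERPUD1, which helps export misfolded proteins for degradation, rose by 1.06. DNAJB9, a BiP co-chaperone, was at 0.64 (edgeR adjusted p = 0.0564), and ATF6B, the relative of the sensor ATF6, was at 0.21 (edgeR adjusted p = 0.0668).

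The ER stress element, which NF-Y occupies together with ATF6 or XBP1, was searched as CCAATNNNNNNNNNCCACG on both strands of the same promoter windows. It was present in 7 of 40 genes of the folding list with a promoter in the table (17.5%) and in 14 of 10352 genes tested (0.135%). The 4 of the risen members that hold it are shown with the matched stretch in capitals, on the gene's strand.
XBP1, chr22:28800578-28800646, - strand: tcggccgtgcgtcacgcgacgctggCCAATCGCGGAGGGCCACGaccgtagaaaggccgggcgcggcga
HSPA5, chr9:125241366-125241434, - strand: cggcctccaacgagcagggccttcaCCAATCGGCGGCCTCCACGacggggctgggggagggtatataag
CALR, chr19:12938359-12938427, + strand: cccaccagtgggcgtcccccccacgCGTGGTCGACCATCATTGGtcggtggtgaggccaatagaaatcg
CRELD2, chr22:49918529-49918597, + strand: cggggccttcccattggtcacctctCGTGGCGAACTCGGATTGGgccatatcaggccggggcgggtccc
In XBP1 and HSPA5 the stretch reads forward and in CALR and CRELD2 it reads as the reverse complement. CALR, the lectin chaperone calreticulin, rose by 0.71 on the log2 scale, and CRELD2, a folding factor induced by ER stress, by 0.62.

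The arm of the stress response that runs through ATF4 and amino acid supply rose in 15 of 31 genes tested and fell in 2 (median 0.28). ATF4 itself was at 0.09 and was called in no fit. The ATF4 element, searched as TGATGNAAT in the same promoter windows, was present in 0 of 25 members with a promoter. It was present in 0.454% of genes tested, 0.583% of those that rose and 0.959% of those that fell. ATF3, a stress-induced transcription factor, had 18.8, 20 and 20.9 CPM in the combination and 4.57, 4.95 and 5.54 CPM under almonertinib (log2 1.98 ± 0.15, edgeR adjusted p = 2.96e-07). DDIT3, which encodes the pro-apoptotic factor CHOP, had 15, 13.9 and 12.6 CPM in the combination and 4.62, 7.19 and 5.3 CPM under almonertinib (log2 1.27). PPP1R15A, the phosphatase subunit that restores translation, rose by 0.89, and the stress cofactor NUPR1 by 1.38. The arginine transporter SLC7A1 rose by 0.74 and the neutral amino acid transporter SLC1A4 by 0.80, while the glutamine transporter SLC38A2 fell by 0.78. ATF5, an ATF4-related factor, fell by 0.51, and CHAC1, the glutathione-degrading ATF4 target, was at 0.35 (edgeR adjusted p = 0.0502). Cytosolic tRNA synthetases split, with 7 of 18 higher and 5 lower (median 0.14). WARS1, the tryptophanyl enzyme that interferon gamma also induces, had 325, 311 and 320 CPM in the combination and 127, 135 and 129 CPM under almonertinib (log2 1.29). AARS1 (0.65), MARS1 (0.55) and GARS1 (0.66) rose, while TARS1 (-0.54) and RARS1 (-0.61) fell. The 6-library fit called 7 rises and 1 fall, and no fall was called without combination library 1 or 3. Transport from ER to Golgi rose in 11 of 38 genes tested and fell in 3 (median 0.04), and 7 rose in the 6-library fit. SAR1A, the GTPase that starts COPII vesicle budding, rose by 0.89, and SEC24D, a COPII cargo adaptor, by 0.61. The coatomer subunit COPB2 fell (-0.53) while COPG1 rose (0.47).

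Matrix and adhesion genes rose in 24 of 63 tested and none fell, with a list median of 0.33 against -0.04 for all genes tested. In the 6-library fit 20 rose and none fell, and with the length and GC trend removed 28 rose and 4 fell. LAMA3 and LAMB3 encode chains of laminin-332, the basement membrane laminin of epithelia, and both rose. LAMA3 had 29.1, 31.2 and 26 CPM in the combination and 8.84, 8.05 and 7.29 CPM under almonertinib, a log2 fold change of 1.83 ± 0.11 (edgeR adjusted p = 1.75e-08). LAMB3 had 199, 171 and 176 CPM in the combination and 87.3, 87.8 and 114 CPM under almonertinib (log2 0.91). The groups did not overlap for either chain. COL17A1, the hemidesmosomal collagen, rose by 1.5 at levels under 4 CPM, and the fibrillar collagen COL5A1 rose by 1.43. By role, 18 of 38 matrix proteins, 4 of 14 matrix enzymes and 2 of 11 integrins rose. CCN2, a matricellular growth factor, was at -0.51 (edgeR adjusted p = 0.0684).

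The plasminogen system and metalloproteinases rose in 7 of 20 genes tested and fell in 1 (median 0.24). PLAUR, the urokinase receptor, had 142, 127 and 127 CPM in the combination and 47.9, 48.7 and 80.2 CPM under almonertinib (log2 1.16). The activators PLAT (0.98) and PLAU (0.40) rose too, whereas the collagenase MMP13 fell by 0.99. MMP2 was called at 2.66, but it lay under 1 CPM in all 6 libraries and lost its call without almonertinib library 2, combination library 1 or combination library 3. Genes of TGF-beta signalling and epithelial-mesenchymal transition rose in 8 of 29 tested and fell in 3 (median 0.13), and 5 rose in the 6-library fit. The pseudoreceptor BAMBI rose by 0.76 and the matrix protein TGFBI by 0.64, while the BMP target ID1 fell (-0.56). The mesenchymal factors SNAI2 (1.31) and SNAI1 (0.63) and N-cadherin CDH2 (0.60) rose, with SNAI2 under 2 CPM in every library. SNAI2 and CDH2 were not called without combination library 1, nor SNAI1 in the 6-library fit. Epithelial junction and identity genes were balanced, with 3 of 33 higher and 3 lower (median 0.04). Either count is 9.09%, near the shares of all genes tested. E-cadherin CDH1 was among those higher (0.40) and EPCAM among those lower (-0.30), but the 6-library fit called 1 rise and no fall in this list.

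Squamous and stress keratin genes rose in 8 of 25 tested and none fell (median 0.12). With the length and GC trend removed, 8 rose and 3 fell. KRT17, a keratin of wounded and hyperproliferative epithelium, had 248, 229 and 239 CPM in the combination and 35.8, 34.8 and 57.4 CPM under almonertinib, a log2 fold change of 2.48 ± 0.20 (edgeR adjusted p = 5.71e-07). KRT16 rose by 0.78, and KRT6A (2.38), KRT14 (2.11) and KRT6B (1.31) rose at levels under 6 CPM. KRT6A with KRT6B, and KRT14 with KRT16 and KRT17, are close in sequence, so reads could be split between them. TGM1, which crosslinks the cornified envelope, had 37.5, 35.2 and 36.1 CPM in the combination and 10.2, 11.3 and 14.2 CPM under almonertinib (log2 1.61).

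Targets and feedback regulators of ERK, the pathway that almonertinib acts on, moved both ways, with 10 of 49 genes tested higher and 17 lower (median -0.10). DUSP6 had 5.8, 6.18 and 6.74 CPM in the combination and 18.6, 15.8 and 14.2 CPM under almonertinib, and DUSP4, another ERK phosphatase, fell by 0.58. EPHA2, an ephrin receptor induced by ERK, had 37.2, 39.4 and 36.9 CPM in the combination and 71.1, 70.8 and 86.9 CPM under almonertinib (log2 -1.01). MYC fell by 0.62, with 64.4, 69.3 and 69.8 CPM in the combination and 105, 113 and 95.8 CPM under almonertinib. The sphingosine kinase SPHK1 fell by 0.78 and the small MAF factor MAFF by 0.61. SPRY2, a feedback inhibitor of receptor tyrosine kinase signalling, went the other way with 21.3, 19.4 and 21.4 CPM in the combination and 7.77, 10.1 and 7.68 CPM under almonertinib (log2 1.28). KLF4 (1.94), KLF2 (1.62), ETS2 (1.14), FOSL2 (0.66) and JUN (0.62), all immediate or delayed early transcription factors, rose. Cyclin D1, CCND1, was at -0.06 (edgeR adjusted p = 0.676). The 6-library fit called 12 falls and 9 rises.

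Receptor kinases and their ligands rose in 8 of 32 tested and none fell (median 0.13). The 6-library fit called 4 rises, and removal of the length and GC trend gave 2 rises and 2 falls. EGFR itself had 600.2, 609.9 and 491 CPM in the combination and 498, 442 and 347 CPM under almonertinib, so the groups overlapped (log2 0.40 ± 0.13, edgeR adjusted p = 0.0367). The EGFR call was lost in 8 of 15 alternatives, among them the 6-library fit and removal of the length and GC trend. ERBB2 was at 0.08 (edgeR adjusted p = 0.57) and ERBB3 at 0.14 (edgeR adjusted p = 0.248). IGF1R rose by 0.58, FGFR1 by 0.77 and the insulin receptor INSR by 0.57. FGFR1 lost its call without combination library 1, IGF1R with the length and GC trend removed, and INSR under both that step and the 6-library fit. The ligand NRG2 was called at 2.83, with levels under 1 CPM in all 6 libraries. MET was at -0.42 (edgeR adjusted p = 0.13).

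Mitotic genes were lower in the combination: 41 of 86 genes of G2 phase and mitosis fell and 1 rose, with a list median of -0.41 against -0.04 for all genes tested. The number of falls depended on the fit, with 22 in the 6-library fit, 13 in the 24-library fit, 52 without almonertinib library 3 and 49 with the length and GC trend removed. BUB1B, the checkpoint kinase BubR1, had 5.52, 7.14 and 5.77 CPM in the combination and 12.8, 12.2 and 10 CPM under almonertinib, a log2 fold change of -0.93 ± 0.16 (edgeR adjusted p = 0.000622). MAD2L1, the checkpoint protein that BubR1 works with, had 5.66, 4.67 and 4.7 CPM in the combination and 8.18, 11.2 and 8.41 CPM under almonertinib (log2 -0.89). ANLN, the actin-binding scaffold of the cleavage furrow, had 17.7, 21.3 and 19 CPM in the combination and 48.7, 38.7 and 29.5 CPM under almonertinib (log2 -1.01). DLGAP5, a spindle-stabilising protein, had 7.85, 11.6 and 8.14 CPM in the combination and 26.9, 18.6 and 15.9 CPM under almonertinib (log2 -1.15). The groups were separate for these genes, and almonertinib library 3 was the lowest of its group for BUB1B, ANLN and DLGAP5. By role, 11 of 20 kinases, cyclins or phosphatases, 4 of 14 checkpoint or cohesion genes, 9 of 18 kinetochore genes, 9 of 21 spindle genes and 8 of 13 cytokinesis or chromatin genes fell. WEE1, the kinase that holds CDK1 inactive, was the 1 gene that rose (0.49), and its call was lost in the 6-library fit. CENPF, a kinetochore protein, was at -0.71 (edgeR adjusted p = 0.0534) and the chromokinesin KIF4A at -0.41 (edgeR adjusted p = 0.0532).

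The CHR element, through which the DREAM and MuvB complexes time mitotic genes, was searched as TTTGAA on both strands. It was present in 43 of 72 mitotic genes with a promoter in the table (59.7%), in 24 of the 36 that fell (66.7%) and in 981 of 10352 genes tested (9.48%). It was present in 13.7% of all genes that fell and 6.5% of all genes that rose. ANLN and BUB1B hold it just before their start and are shown on their own strand, with matched letters in capitals.
ANLN, chr7:36389817-36389872, + strand: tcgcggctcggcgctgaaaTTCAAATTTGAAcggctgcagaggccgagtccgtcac
BUB1B, chr15:40161021-40161076, + strand: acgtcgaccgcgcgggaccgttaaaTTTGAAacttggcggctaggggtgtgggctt
In ANLN the 2 matches lie side by side and read on opposite strands.

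DNA replication genes fell in 14 of 59 tested and rose in 1 (median -0.24), and 7 fell in the 6-library fit. E2F1, the factor that drives S-phase genes, had 35.3, 40.5 and 36.1 CPM in the combination and 60.5, 52.8 and 70.6 CPM under almonertinib (log2 -0.72). The helicase subunit MCM6 fell by 0.73, the clamp PCNA by 0.49 and the ribonucleotide reductase subunit RRM1 by 0.77. With the length and GC trend removed, 24 fell. CCNE1, which encodes cyclin E1, rose by 0.68, a call lost without combination library 1. Homologous recombination and Fanconi genes fell in 11 of 32 and rose in 1 (median -0.46), with 4 falls in the 6-library fit and 2 in the 24-library fit. FANCI (-0.72) and BARD1 (-0.83) were among the falls, while CHEK2, the checkpoint kinase, was the gene that rose, with 47.4, 49.4 and 51.7 CPM in the combination and 22.1, 21 and 19.8 CPM under almonertinib (log2 1.24 ± 0.11, edgeR adjusted p = 1.32e-06). CDK inhibitors and p53 targets rose in 5 of 26 tested and fell in 2 (median -0.02). CDKN2C, the INK4 inhibitor p18, had 47.3, 44 and 48.7 CPM in the combination and 16.3, 20.2 and 23.8 CPM under almonertinib (log2 1.22). CDKN1A, which encodes p21, was at 0.05 (edgeR adjusted p = 0.843) with overlapping groups, and GDF15, a stress-secreted cytokine, fell by 0.88.

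Tubulins, the proteins paclitaxel binds, gave 1 rise (6.67%) and 2 falls (13.3%) among 15 tested (median 0.04). TUBB, the most abundant beta-tubulin gene of the list, had 1855, 1616 and 1903 CPM in the combination and 1521, 1555 and 1920 CPM under almonertinib, with overlapping groups (log2 0.10, edgeR adjusted p = 0.551). TUBA1A (0.61) was called higher, and TUBB4B (-0.38) and TUBD1 (-0.76) lower. TUBB4B and TUBD1 were not called in the 6-library fit, nor TUBA1A without almonertinib library 1 or 2 or combination library 1 or 3, and tubulin genes are alike enough to share reads. TUBD1 lost its call in 8 of 14 alternatives that tested it. Microtubule-associated proteins rose in 6 of 34 tested and fell in 2 (median -0.07), among them MAP1B, which stabilises microtubules in neurons (0.91). The 6-library fit called 3 rises and no fall there, and removal of the length and GC trend gave 4 rises and 8 falls. ABC transporters rose in 2 of 11 and fell in 2 (median 0.10). The drug efflux pump ABCG2 fell by 0.69 and ABCC1 rose by 0.39, a call lost with the length and GC trend removed. ABCB1, the pump best known to carry paclitaxel out of cells, did not pass the filter on low counts.

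Transcripts of the mitochondrial genome rose almost as a block, with 12 of 13 protein genes higher and a list median of 0.91 against -0.04 for all genes tested. The 6-library fit called 12 as well and the 24-library fit 8. MT-ND4, a complex I subunit, had 1241, 1195 and 1250 CPM in the combination and 466, 728 and 433 CPM under almonertinib, a log2 fold change of 1.18 ± 0.15 (edgeR adjusted p = 4.91e-05). MT-CYB, the complex III cytochrome, had 547, 561 and 689 CPM in the combination and 288, 411 and 258 CPM under almonertinib (log2 0.91). MT-ND3 was the exception, with 1182, 1045 and 1619 CPM in the combination and 955, 1591 and 1192 CPM under almonertinib (log2 0.04, edgeR adjusted p = 0.891). Mitochondrial genes took 1.05%, 1.09% and 1.31% of the counts in the combination libraries, against 0.584%, 0.855% and 0.475% in the almonertinib libraries, and 1.23% to 1.39% in PC9 controls.

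Nuclear-encoded genes of complexes I to V went the other way, with 14 of 34 lower and none higher (list median -0.27). In the 6-library fit 5 fell, and in the 24-library fit 1. UQCRB, a complex III subunit, had 86.1, 85.8 and 97.3 CPM in the combination and 158, 181 and 172 CPM under almonertinib (log2 -0.93 ± 0.08, edgeR adjusted p = 1.17e-06). Genes for mitochondrial RNA processing and the mitochondrial unfolded protein response fell in 7 of 18 tested and none rose (median -0.26), with 3 falls in the 6-library fit and 1 in the 24-library fit. Beside PNPT1, these were SLIRP (-0.59) and LRPPRC (-0.73), which together protect mitochondrial messages, FASTKD2 (-0.86), and the transcription factors TFAM (-0.60) and TFB2M (-0.58), with YME1L1, an inner-membrane protease (-0.44). The calls for FASTKD2, TFAM, TFB2M and YME1L1 were lost in the 6-library fit, that for LRPPRC without combination library 1, and that for SLIRP with the length and GC trend removed. TFB2M lost its call in 8 of 15 alternatives.

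Several housekeeping lists leaned downward. Ribosome biogenesis genes fell in 11 of 33 tested and none rose (median -0.26), among them the nucleolar proteins NCL (-0.72) and NPM1 (-0.57). The 6-library fit called 8 of these falls and the 24-library fit 3. Cytosolic ribosomal proteins gave 1 rise and 2 falls in 55 (median -0.07), although 9 fell without almonertinib library 1 and 9 rose without almonertinib library 3. Proteasome subunits fell in 7 of 30 and none rose (median -0.13), led by PSMA3 (-0.83), with 3 falls in the 6-library fit and 1 in the 24-library fit. Heat shock proteins fell in 5 of 18 and rose in 1 (median -0.13), against 3 falls in the 6-library fit. HSP90AA1, the inducible cytosolic Hsp90, had 238, 314 and 242 CPM in the combination and 821, 545 and 403 CPM under almonertinib (log2 -1.16), and DNAJA1, its Hsp40 partner, fell by 0.92. The mitochondrial chaperones HSPD1 (-0.51) and HSPE1 (-0.69) fell too, HSPD1 with a call lost in the 6-library fit and HSPE1 without almonertinib or combination library 2. NRF2 targets and redox enzymes fell in 7 of 37 and rose in 3 (median -0.18), with thioredoxin TXN at -0.66. The 6-library fit called 2 falls and the 24-library fit 1. Cholesterol genes gave 1 rise and 1 fall in 31 (median -0.13). Of 16 fatty acid synthesis genes (median -0.01) none was called in edgeR's test, against 2 at an unadjusted p under 0.05 and 1 call in DESeq2. Glycolysis and hypoxia genes rose in 3 of 34 and none fell (median 0.08), with 14 rises and 1 fall without almonertinib library 3. Removal of the length and GC trend gave 3 rises and 3 falls.

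Lysosome and autophagy genes rose in 9 of 37 tested and none fell (median 0.15), with 17 rises and 1 fall without almonertinib library 3. Removal of the length and GC trend gave 12 rises and 2 falls. WIPI1, an autophagosome formation protein, rose by 0.91, and GABARAPL1, which coats autophagosomes, by 0.70. FOXO targets rose in 6 of 20 and none fell (median 0.20), with CITED2 at 1.05 and IRS2, the insulin receptor substrate, at 0.69. With the length and GC trend removed, 6 rose and 1 fell. YAP-TEAD targets rose in 6 of 23 and fell in 2 (median 0.10), against 3 and 2 in the 6-library fit. Notch pathway genes rose in 4 of 15 and fell in 1 (median 0.22). Wnt pathway genes rose in 4 of 38 (10.5%) and fell in 3 (7.89%), near the shares of all genes tested (median -0.04). The Notch ligand JAG1 rose by 0.97 and the receptor NOTCH1 by 0.52. In the list of lung lineage and airway secretion, 8 of 25 rose and 2 fell (median 0.24), against 7 and none in the 6-library fit. The membrane mucin MUC4 had 276, 246 and 207 CPM in the combination and 101, 95.5 and 83.4 CPM under almonertinib (log2 1.38), and the gel-forming mucin MUC5B rose by 1.16. Complement genes C3 (0.63) and CFB (0.80) rose as well. NKX2-1, the lung lineage factor, was under 2 CPM in all 6 libraries and was not called (-0.88, edgeR adjusted p = 0.116). Among 5 IGF binding proteins (median 0.07), IGFBP6 was the gene that changed, with 636, 608 and 647 CPM in the combination and 238, 239.7 and 409 CPM under almonertinib (log2 1.09).

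In the BCL2 family, which decides mitochondrial apoptosis, 3 of 17 genes rose and 2 fell (median -0.18), and the 3 that rose are among the 10 BH3-only genes. PMAIP1, which encodes NOXA, had 22.1, 24.3 and 22.6 CPM in the combination and 11.3, 11.9 and 8.8 CPM under almonertinib (log2 1.11 ± 0.13, edgeR adjusted p = 1.76e-05). BCL2L11, which encodes BIM, had 44.8, 46 and 45.1 CPM in the combination and 29.8, 30.1 and 25.2 CPM under almonertinib (log2 0.68). BMF rose by 0.57. The groups were separate for all 3. The anti-apoptotic BCL2L1 fell by 0.34, the effector BOK fell by 0.36, both calls lost in the 6-library fit, and MCL1 was at -0.18 (edgeR adjusted p = 0.341). Death receptors and caspases rose in 3 of 27 (11.1%) and fell in 5 (18.5%), with a median of -0.03, against 1 and 1 in the 6-library fit. TNFRSF10B, the TRAIL receptor DR5, rose by 0.47, while its ligand TNFSF10 fell by 0.54. The TNFSF10 call was lost in 8 of 15 alternatives, among them the 6-library fit and removal of the length and GC trend.

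**Figure D3:**
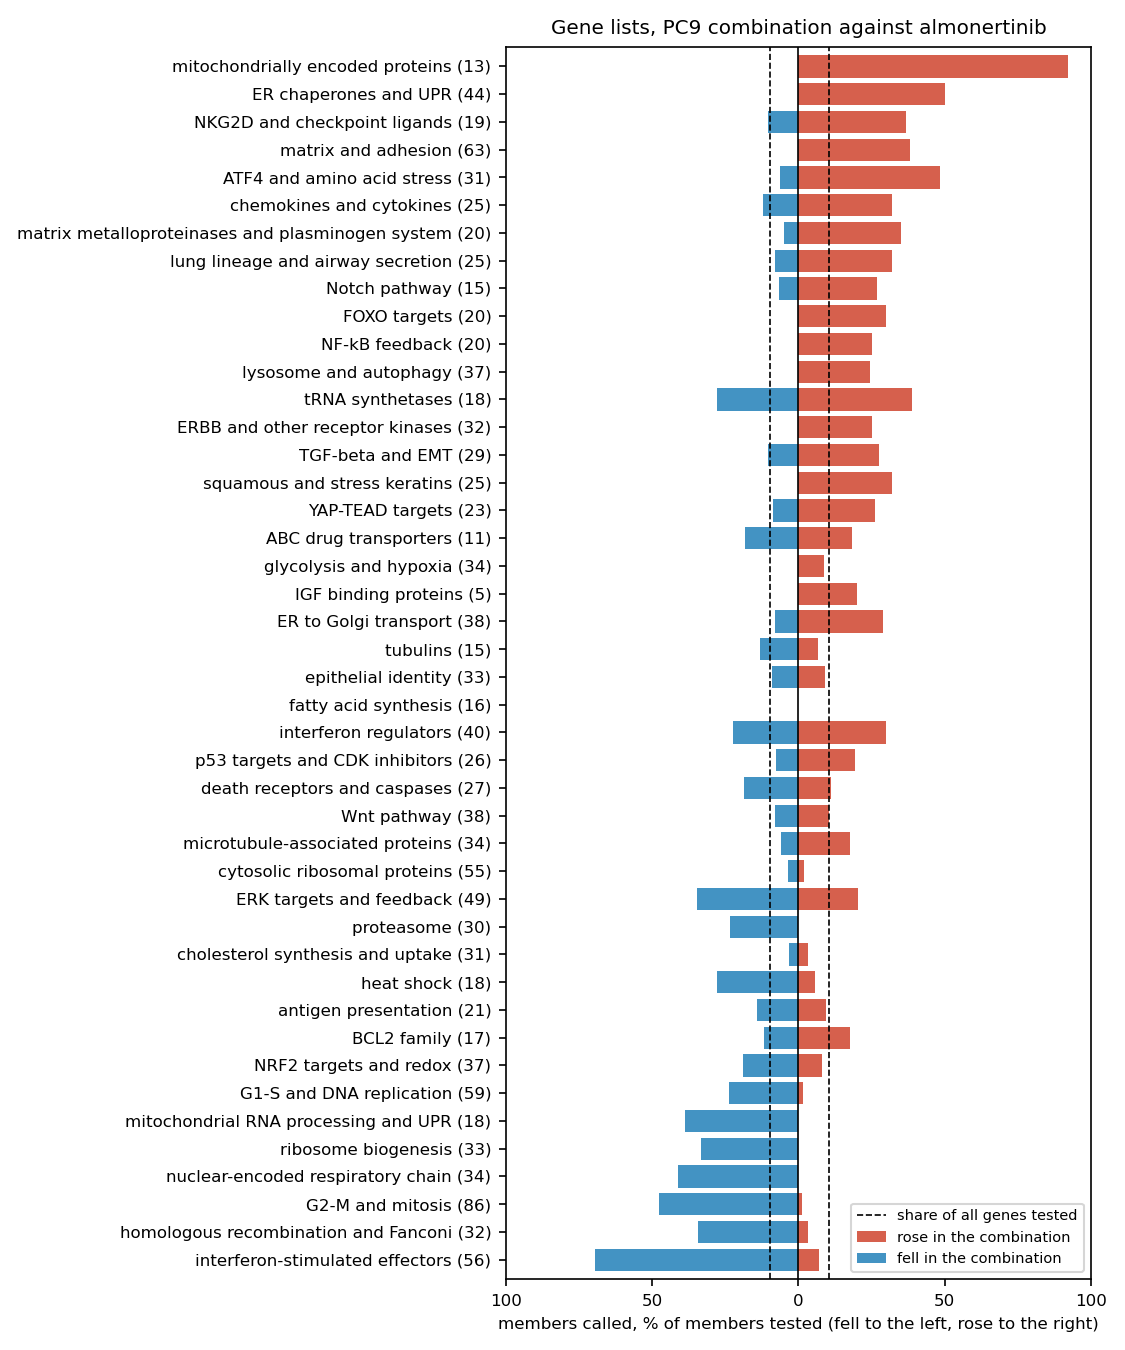
Share of tested members called in PC9, combination against almonertinib, for 44 gene lists ordered by median log2 fold change; bars to the right rose, bars to the left fell, numbers in brackets are members tested, and dashed lines mark 10.3% and 9.74% of all genes tested. Mitochondrially encoded proteins and ER chaperones reach far to the right and interferon-stimulated effectors far to the left.

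Paclitaxel was also added without almonertinib in PC9, and the change on almonertinib was tested against the change from control to paclitaxel. These comparisons share no library, and the combination's paclitaxel dose is not given, so that an equal dose in both is assumed and was not tested. They differed for 5826 of 12796 genes (45.5%), with 2827 differences positive and 2999 negative. A positive difference means a more positive change on almonertinib, whether or not the gene rose there. Without almonertinib, paclitaxel changed 7038 genes (55%). Of the 1324 genes that rose on almonertinib, 11.6% rose and 43.9% fell under paclitaxel alone, where 27% and 28% of all genes tested did so. Of the 1246 genes that fell on almonertinib, 30.3% fell and 38.3% rose under paclitaxel alone. Across genes, which are not independent replicates, the Pearson r of the changes was -0.33. The deviation of the paclitaxel libraries followed GC content with a Spearman rho of -0.58, -0.59 and -0.415. In the control libraries it was 0.163, 0.195 and 0.377. How far this trend enters r and the shares above was not tested. With the length and GC trend removed, 2259 differences were positive and 3478 negative, and 3620 of these calls were among the 5826.

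Interferon-stimulated effectors moved in opposite directions in the 2 settings. Their median change was -0.76 when paclitaxel was added to almonertinib and 1.19 when it was added to untreated cells, and the difference was called for 50 of 56, negative in 46 of them. Among genes averaging at least 5 CPM over the PC9 combination and almonertinib libraries that changed on almonertinib, IFI44L gave the most negative difference, -5.45 ± 0.34 (edgeR adjusted p = 4.62e-09), with a change of 3.89 ± 0.27 under paclitaxel alone, followed by XAF1 (-4.97) and MMP13 (-4.75). The IFNL1 difference was 4.35 ± 0.35 (edgeR adjusted p = 9.56e-08), with a change of -2.11 under paclitaxel alone. IL6 (5.42), KRT17 (5.39), FN1 (5.09) and KCNN1 (4.96) gave the largest positive differences among the same genes. Each difference exceeded the gene's change on almonertinib, so the change under paclitaxel alone was negative by arithmetic. Over all 12796 genes tested, 45.5% of differences were called, 2827 positive and 2999 negative, and the counts by list stand beside these. For ER folding genes, 30 of 44 differences were called, 25 of them positive. For mitotic genes, 62 of 86 were called, 45 of them negative, with a median change of 0.23 under paclitaxel alone. The FOXO list had a median of 0.20 on almonertinib and 0.56 under paclitaxel alone. Of its 20 differences 11 were called, 3 positive and 8 negative, beside 45.5% called over all genes tested. NUPR1, IRS2 and PLAT rose in both settings, and their differences of -0.66, 0.11 and -0.23 did not pass (edgeR adjusted p = 0.0783, 0.581 and 0.38).

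**Figure D4:**
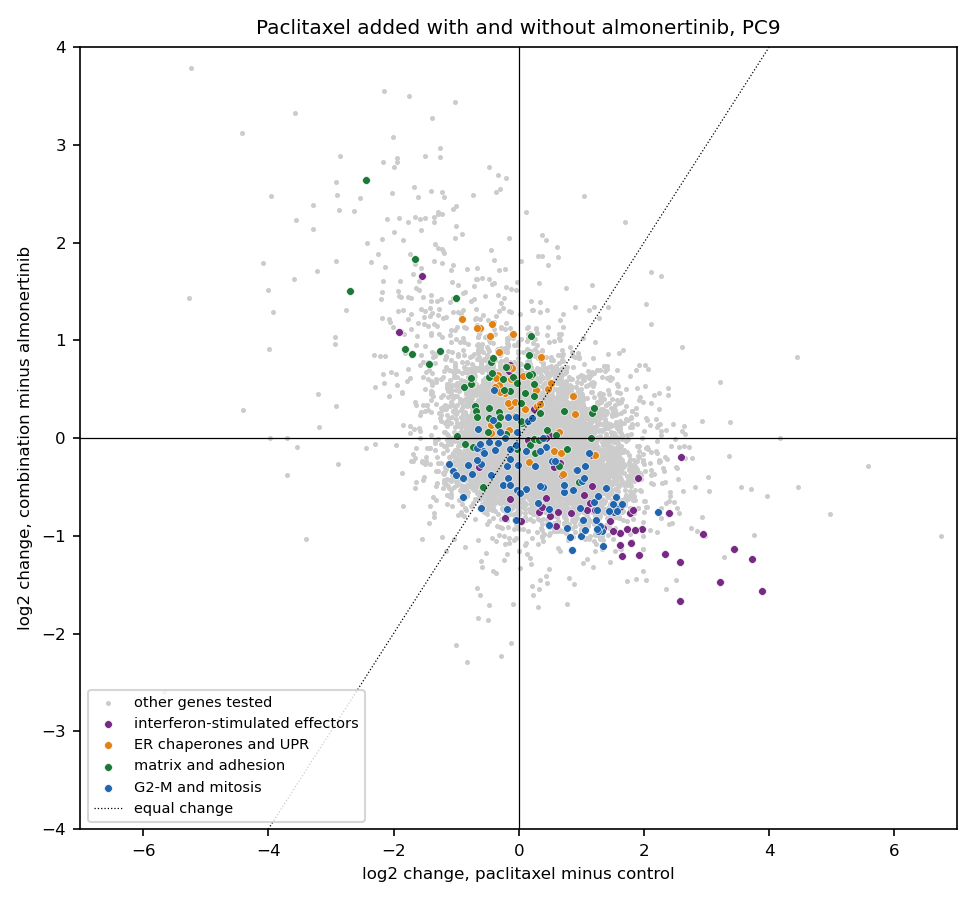
Log2 change of each gene tested in PC9 when paclitaxel was added to almonertinib (vertical axis) and to untreated cells (horizontal axis), with 4 lists coloured and the dotted line marking equal change. Interferon-stimulated effectors lie mostly at the lower right and ER chaperones mostly above the horizontal zero line.

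In H1975, the same addition called 45 of 13380 genes (0.336%), 40 higher and 5 lower, in the fit of all 24 libraries, and 2298 at an unadjusted p under 0.05. Of the 40 that rose, 36 also rose in PC9, which is 90% of the H1975 rises, against 10.3% of all genes tested in PC9. The 36 genes are 2.72% of the 1324 PC9 rises. Those PC9 rises come from the fit of the PC9 libraries alone, so the fits behind this overlap differ. In the fit of all 24 libraries, 918 genes were called in PC9, 655 of them higher, and their overlap with the H1975 rises was not tested. The change differed between the lines for 96 genes (0.717%), 84 of them more positive in PC9, while doses also differed, so that line and dose cannot be told apart. The count of differences was 61 with only the groups compared and also 61 without PC9 combination library 3, 182 without H1975 almonertinib library 1, and 306 with the length and GC trend removed. KRT17 rose in PC9 and stood at -1.42 ± 0.70 in H1975, a difference of 3.92 ± 0.72 (edgeR adjusted p = 0.00486). CCL5 was at -0.22 ± 0.25 in H1975, with a difference of 3.1 (edgeR adjusted p = 4.83e-06), and RAET1L at 0.46 ± 0.26, with a difference of 2.38 (edgeR adjusted p = 0.000127). The transcription factor KLF2 (2.21) and TFPI2, a secreted protease inhibitor (2.21), also differed. On the negative side, DUSP6 was at 0.34 in H1975 (difference -1.71 ± 0.28, edgeR adjusted p = 0.00167), and DKK1 (-1.37), BATF2 (-1.35), MX2 (-1.26) and SP110 (-1.11) followed. Of the lists, 8 of the 56 interferon-stimulated effectors and 3 of the 44 ER folding genes differed between the lines. Among called genes averaging at least 5 CPM over the PC9 combination and almonertinib libraries, EIF3CL gave the most negative value, -2.63, with 4.9, 4.58 and 4.8 CPM in the PC9 combination and 17.4, 9.52 and 5.4 CPM under almonertinib. It is a near-identical copy of EIF3C, and its PC9 call was lost in the 6-library fit.

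**Figure D5:**
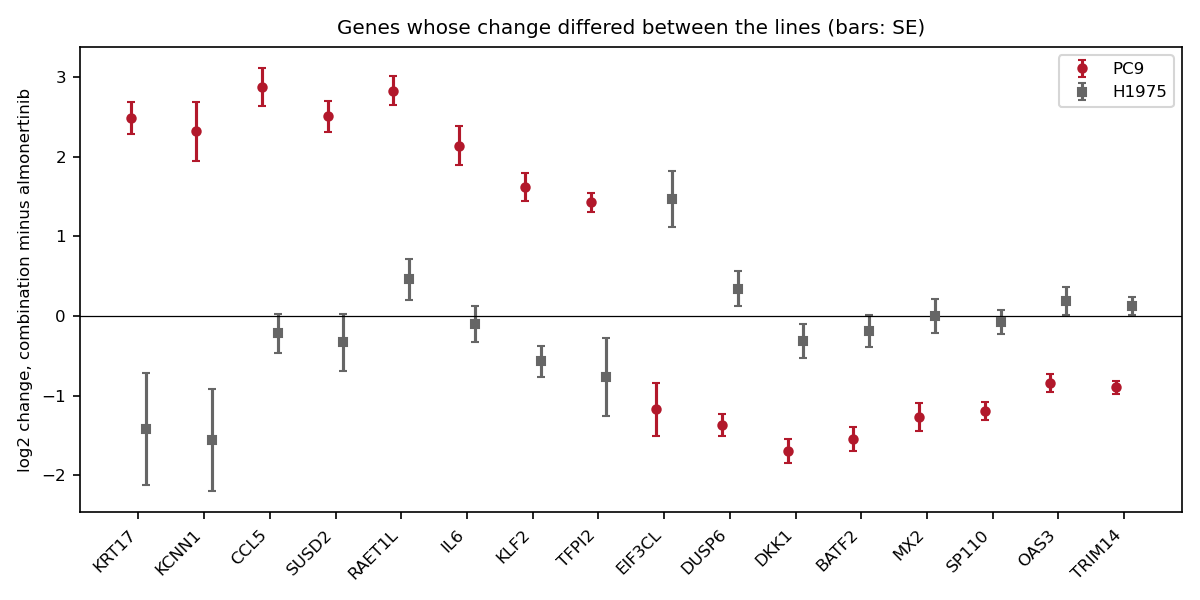
Log2 change, combination minus almonertinib, with SE bars, in PC9 (circles) and H1975 (squares) for the 16 genes named for their difference between the lines. The first 8 genes lie above their H1975 value and the other 8 below it.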

How the data were processed

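Human PC9 and H1975 cells were sequenced as bulk RNA, 3 libraries per group. The deposited values are whole-number counts per gene, made by the authors with HISAT2 2.2.1 and HTSeq, per the submitters' processing notes. The genome build, annotation and strand setting are not given in the sources used here, so reads of overlapping, antisense or near-identical genes may be shared. All columns of the table were mapped to samples by name.

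The counts of 19702 genes were fitted with edgeR 4.0.16 in R 4.3.3 (filterByExpr, TMM factors, quasi-likelihood test) over the 12 PC9 libraries, which share an estimate of the spread with 8 residual degrees of freedom, and p-values were Benjamini-Hochberg adjusted over all genes tested. The contrast of PC9 with H1975 came from a fit over the 24 libraries. The script was tested on simulated data first. Totals over the series were 14232299 to 24245314 counts, so low genes carry the larger counting error.

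Genes were named by rule: the 15 largest rises and 15 largest falls among called protein-coding genes with separate groups and a mean of at least 5 CPM, the 8 largest differences either way between steps and between lines under the same conditions, up to 6 called genes per list and direction and the 3 uncalled genes of smallest p, and a set followed throughout. RAET1E, YME1L1 and CRELD2 fall outside it and were chosen after their values were seen. Results for some of the genes picked in this way are left out. The comparison and the 44 gene lists, 1488 of whose 1490 entries were in the table, were chosen with earlier results of these data known.

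Promoters came from RefSeq (GRCh38.p14), with 10352 of 12796 genes tested matched by symbol. AP-1 and kB elements were searched as well and are not described here. Alternatives were RLE scaling, dropping the filter on low counts or tightening it (at least 1 CPM in 3 libraries and a mean of 5), DESeq2 1.42.0, a replicate block, removal of a spline trend (5 degrees of freedom) on transcript length and GC content (GENCODE v29, 19603 genes matched), other sets of libraries, and each library left out in turn.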

Additional observations from a re-analysis of the deposited data

Results flagged for a closer look

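The change brought by paclitaxel in PC9 differed between cells on almonertinib and untreated cells for 5826 genes in edgeR's test of the difference, which assumes the same paclitaxel dose in both. Among called genes averaging at least 5 CPM over the PC9 combination and almonertinib libraries, the largest positive differences, meaning a higher change on almonertinib, were those of IL6 (5.42 on the log2 scale), KRT17 (5.39), FN1 (5.09), KCNN1 (4.96), RAET1L (4.77), SUSD2 (4.53), LY6G6C (4.42) and IFNL1 (4.35). Large negative differences included those of IFI44L (-5.45), XAF1 (-4.97), MMP13 (-4.75), SAMD9L (-4.69), TRIM22 (-4.58), PNPT1 (-4.24) and LGALS9 (-3.97).

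The change from almonertinib to the combination differed between PC9 and H1975 for 96 genes, again by edgeR's test of the difference. Among genes chosen in the same way, more positive in PC9 were KRT17 (3.92), KCNN1 (3.89), CCL5 (3.1), SUSD2 (2.85), RAET1L (2.38), IL6 (2.26), KLF2 (2.21) and TFPI2 (2.21). More negative in PC9 were EIF3CL (-2.63), DUSP6 (-1.71), DKK1 (-1.37), BATF2 (-1.35), MX2 (-1.26), SP110 (-1.11), OAS3 (-1.02) and TRIM14 (-1.01). The lines also received different doses of the single agents, and line and dose cannot be told apart.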

How the results depend on the processing

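For the combination against almonertinib in PC9, the count of 2570 called genes was 2460 to 2721 with RLE factors, no filter, the stricter filter or DESeq2 and 3312 with the length and GC trend removed. It was 1318 with only the 6 compared libraries, 918 in the 24-library fit, and between 1274 (without combination library 1) and 4184 (without almonertinib library 3) when 1 library was left out. With the length and GC trend removed, 1965 of the 3312 were among the 2570. The number of differences between the paclitaxel steps, 5826, kept within 1.5 times under every alternative run. It ranged from 4597 with the stricter filter to 7474 without almonertinib library 3. The genes behind that number changed more: of 5737 differences called with the length and GC trend removed, 3620 were among the 5826. Removing the length and GC trend moved the median of that difference over all genes by more than 0.1 on the log2 scale, to -0.108, and its share of positive calls to 39.4%, against 48.5%. The 96 differences between the lines became 165 with DESeq2, 306 with the length and GC trend removed, 300 with that step and a replicate block, and 61 with only the groups compared; with 1 library left out they ranged from 61 (without PC9 combination library 3) to 182 (without H1975 almonertinib library 1). Their share of positive calls was 68% with the trend removed, against 87.5%. The cause of these shifts was not tested.

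Whether replicate numbers pair the libraries is not settled by these data. The correlations of deviations between same-numbered combination and almonertinib libraries were -0.154, 0.252 and 0.28. Between different numbers they ran from -0.437 to 0.383. With a replicate block, 3385, 6431 and 94 genes were called for the 3 comparisons in the order above, and not every library correlated best with its own number. No gene named in the report as called changed direction under any alternative run. Of the 188 called genes followed through the alternatives, however, 45 lost the call under some alternative, 35 of them in the 24-library fit. Counting error at low levels limits genes under 1 CPM such as MMP2 and NRG2, and the 3 libraries per group limit all differences.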
